A study of Mus musculus with 4 samples.

Results

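The genes described here are 8 transcription factor genes of the trophoblast (Cdx2, Eomes, Elf5, Hand1, Gata2, Gata3, Ascl2 and Tfap2c) and Plac1, a placenta-enriched gene whose product is a secreted or membrane protein and not a transcription factor. They were taken by gene symbol, which gave 9 of 22180 genes that had a probe set of their own, with 10 probe sets among them because Gata3 had 2. Expression was measured in total RNA of 4 mouse cultures of the strain Black6-129X1/SvJ, pooled from males and females, on 1 array each, so no condition had a replicate. Both day 6 cultures were bulk reprogramming cultures of fibroblasts that carry doxycycline-inducible reprogramming factors, grown in serum-containing stem cell medium and sampled on day 6 of doxycycline with ascorbic acid. One had a knockdown of Firefly, a luciferase gene that mouse cells lack and so the control, and the other a knockdown of Sumo2, a small protein that is attached to other proteins. The other 2 arrays held stable clones of induced pluripotent stem cells (iPSC) derived from fibroblasts with Sumo2 knockdown, 1 labelled 38 h and 1 labelled 10 day; what these times count, and whether a clone is a single line, is not stated in the labels. The labels name no factor transgene and no knockdown construct.

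The trophoblast is the first lineage to leave the embryo proper. It forms the outer layer of the blastocyst and later most of the placenta's own cells, and a stem cell state within it is kept by Cdx2, a homeobox factor, Eomes, a T-box factor, and Elf5, an ETS factor, which support each other's expression. Tfap2c (AP-2 gamma), Gata3 and Gata2 act with them, while Ascl2 and Hand1, both basic helix-loop-helix factors, are needed for spongiotrophoblast and for trophoblast giant cells. In embryonic stem cells Pou5f1 holds Cdx2 down and the Elf5 promoter is kept methylated. Several of the factors also have work elsewhere: Eomes in the primitive streak, Gata2 in blood and endothelium, Gata3 in T cells, Hand1 in mesoderm and heart, and Tfap2c in germ cells and pluripotent cells.

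Promoter sequences are shown for Eomes and Ascl2, the pair of members that moved together across the arrays, and for Cdx2, which was not measured on any array. They are the 250 bases before the annotated start in RefSeq, build GRCm38.p6, 5′ to 3′ along the gene's strand. Eomes lies at chr9:118477939-118478188 on the plus strand, Ascl2 at chr7:142969265-142969514 on the minus strand and Cdx2 at chr5:147307250-147307499 on the minus strand. Capitals mark CCAAT or its reverse ATTGG, the core of the CCAAT box, and in Cdx2 also the octamer ATGCAAAT, the letters bound by POU factors such as Pou5f1.
Eomes: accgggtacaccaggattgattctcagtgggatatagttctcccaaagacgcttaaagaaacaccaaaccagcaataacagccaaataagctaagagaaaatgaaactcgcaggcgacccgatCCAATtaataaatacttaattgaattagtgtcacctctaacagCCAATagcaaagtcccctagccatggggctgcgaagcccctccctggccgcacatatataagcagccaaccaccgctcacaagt
Ascl2: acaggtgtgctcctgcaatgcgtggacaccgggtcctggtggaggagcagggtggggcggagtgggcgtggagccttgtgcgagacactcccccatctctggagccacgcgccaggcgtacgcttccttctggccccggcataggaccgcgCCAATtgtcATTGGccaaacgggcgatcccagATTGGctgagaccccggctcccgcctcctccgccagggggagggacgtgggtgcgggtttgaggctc
Cdx2: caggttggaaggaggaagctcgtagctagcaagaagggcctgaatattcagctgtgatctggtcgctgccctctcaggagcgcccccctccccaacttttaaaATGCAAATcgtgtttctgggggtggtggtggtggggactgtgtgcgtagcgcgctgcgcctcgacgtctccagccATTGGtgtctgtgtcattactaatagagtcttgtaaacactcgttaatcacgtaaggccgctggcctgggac
The CCAAT letters occurred 2 times before Eomes, 3 times before Ascl2 and 1 time before Cdx2. They also occurred 2 times in the downstream window of Gata2, which did not rise with the pair. Of all 32841 windows of this length, 33.9% held them at least once. The octamer stood 147 to 140 bases before the start of Cdx2, and 1.60% of all windows held it on either strand. Further letters were searched on both strands in the same windows. The AP-2 letters GCCNNNGGC were found 1 time in Cdx2, 3 times in Gata3 and 1 time in the downstream window of Gata2, against 13.7% of all windows. The E-box CANNTG, read by basic helix-loop-helix factors, was found, among the windows shown, 2 times in Ascl2, 1 time in Cdx2 and not in Eomes, against 66.2% of all windows. The GATA letters AGATAA were found in the upstream Plac1 window alone among the members' windows (10.0% of all windows), and neither the T-box letters AGGTGTGA (1.12%) nor TATAAA (12.4%) were found in any of them. Only these letters were searched, so near forms such as tatataag in the Eomes window were not counted. CpG dinucleotides, the sites of DNA methylation, numbered 2 in the upstream and 8 in the downstream Elf5 window, 2 and 4 in the Plac1 windows, 8 in Eomes, 13 in Cdx2, 19 in both Ascl2 and Gata3 and 22 and 24 in the Gata2 windows, with a median of 6 over all windows. These counts describe letters, and methylation was not measured here. Windows were found for 7 of the 9 genes, and Hand1 and Tfap2c had none in the table.

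Values are log2 expression from RMA, 1 per probe set and array, so a step of 1 is 2-fold. Apart from the floor described next, levels are compared between arrays for a gene and not between genes, since probe sets differ in how brightly they read. A gene with a dim probe set can therefore lie below the floor. A measuring floor was set at the median of the probe sets that name a single gene, 6.64 to 6.67 on the 4 arrays, and measured genes are those that reached it on 1 or more of the arrays under comparison. Sumo2 itself read 10.65 with Firefly knockdown and 10.56 with Sumo2 knockdown, 93.8% of the control, and 4 dimmer probe sets that the annotation shares between Sumo2 and microRNA genes stood at 79.4% to 84.0%, with identical values for 2 of the 4. The latter culture is called the culture labelled Sumo2 knockdown. Between the day 6 cultures the log2 differences of all measured genes had an SD of 0.33, and between the iPSC arrays 0.41.

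The 9 genes did not behave as one group. Cdx2, Elf5 and Plac1 stayed below the measuring floor on all 4 arrays. Eomes and Ascl2 were close to the floor at day 6 and higher in both iPSC arrays, Tfap2c was higher in the culture labelled Sumo2 knockdown and higher again in the 10 day line, Hand1 passed the floor in the 10 day line alone, and Gata2 and Gata3 were above the floor on every array. In all, 2 of the 9 were at or above the floor with Firefly knockdown, 5 in the culture labelled Sumo2 knockdown, 5 in the 38 h line and 6 in the 10 day line. Since the floor is a median, about 50% of single-gene probe sets reach it on any array. The 3 genes below it on every array stand beside 42.6% of all 22180 genes, so their low values are not unusual here. In the culture labelled Sumo2 knockdown, Eomes and Ascl2 both read 6.76, just above the floor of 6.67. In RNA from a whole culture, fewer cells that express a gene and less of its RNA per cell cannot be told apart.

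**Figure D1:**
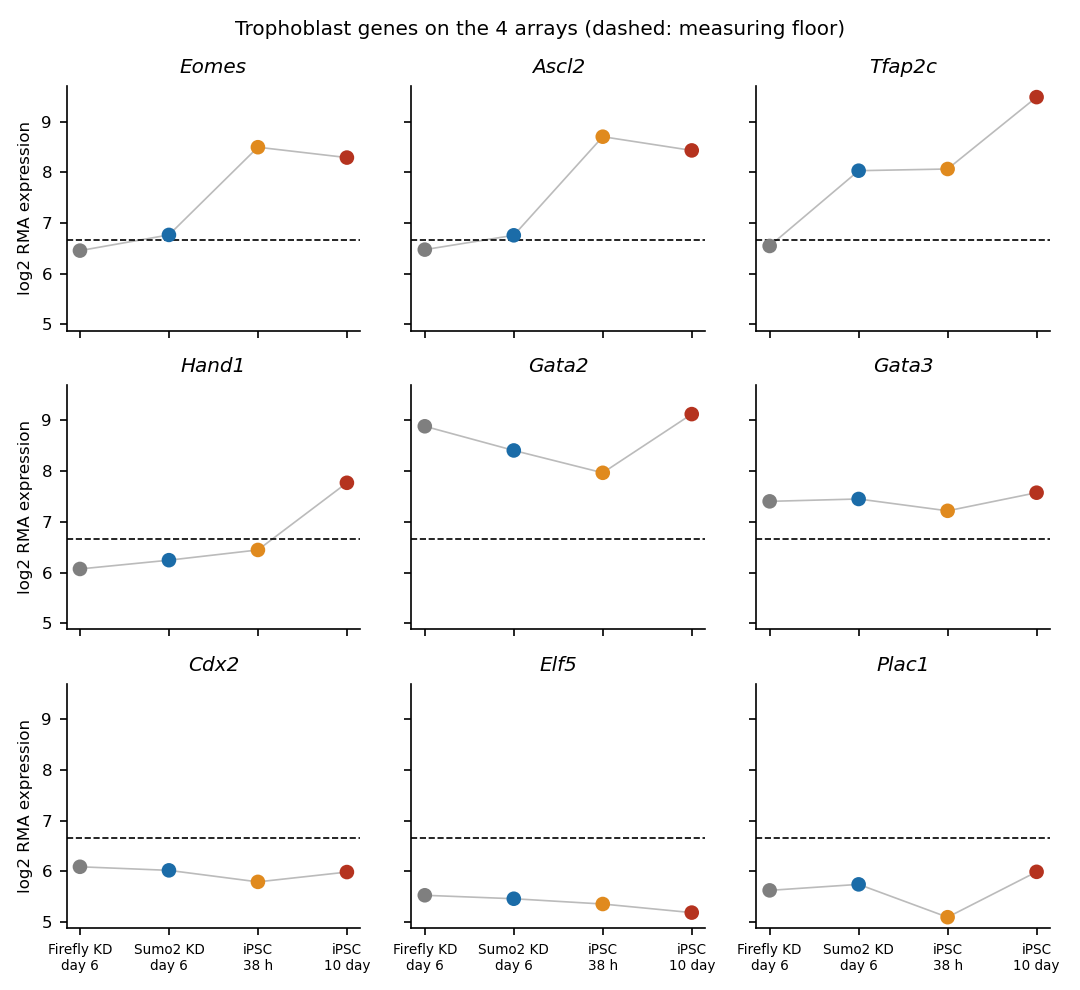
Log2 RMA expression of each gene (y axis) on the 4 arrays (x axis, 1 point per array, with lines only to guide the eye); KD is the labelled knockdown and the dashed line the mean of the 4 measuring floors. Eomes and Ascl2 show the same step between day 6 and iPSC, Tfap2c climbs from 6.55 to 9.48, and Cdx2, Elf5 and Plac1 lie below the floor throughout.

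The label of these genes was checked against markers of trophoblast cells. Of 6 marker genes, 3 had a probe set of their own. Tpbpa, a spongiotrophoblast gene, read 4.21 to 4.57 and Ctsq, a placental cathepsin gene, 3.78 to 4.38, both below the floor on every array. The keratin gene Krt7, which other epithelia also express, read 6.68 to 7.29. Over the 3 genes the mean log2 level was 5.18 and 5.35 in the Firefly and Sumo2 labelled cultures and 5.07 and 5.15 in the 38 h and 10 day lines. The labelled cell types were checked in the same way. Of 7 pluripotency markers 6 reached the floor in each iPSC array, all but Dppa5a, against 3 in the culture labelled Sumo2 knockdown and 1 with Firefly knockdown. Of 7 fibroblast markers 6 did so in each day 6 culture, 7 in the 38 h line and 6 in the 10 day line. Their mean log2 level was 9.91 and 9.41 in the Firefly and Sumo2 labelled cultures and 9.18 and 8.67 in the 38 h and 10 day lines. Between iPSC and day 6, 3 of the 7 fell, 1 rose and 3 did not pass.

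The stem cell factors Cdx2 and Elf5 read below the floor on every array. Cdx2 read 6.09 with Firefly knockdown, 6.02 in the culture labelled Sumo2 knockdown, 5.79 in the 38 h line and 5.99 in the 10 day line. These 4 values spanned 0.30, within the SD of either pair of arrays over all measured genes. Elf5 read 5.53, 5.46, 5.36 and 5.19 in the same order, a span of 0.34. Below the floor the order of such values rests on background, and how well either probe set responds was not tested. Plac1 read 5.63, 5.75, 5.10 and 5.99, and its lowest value was that of the 38 h line. With no filter on dim genes, the differences between iPSC and day 6 were -0.17 for Cdx2, -0.22 for Elf5 and -0.14 for Plac1, and 0 of the 3 passed (limma adjusted p of 0.254 to 0.729, unadjusted p of 0.148 to 0.635).

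Eomes and Ascl2 were the members that rose from the day 6 cultures to iPSC. Eomes, which in the embryo also directs the primitive streak, read 6.45 with Firefly knockdown, 6.76 in the culture labelled Sumo2 knockdown, 8.49 in the 38 h line and 8.29 in the 10 day line. Both iPSC values stood above both day 6 values, and the Firefly value was below the floor. The rise was at least 3.22-fold counted from the floor (1.78 as read on the log2 scale with an SE of 0.19, and a limma adjusted p = 0.00105). Ascl2, an imprinted gene that is also a factor of intestinal stem cells, read 6.47, 6.76, 8.70 and 8.43 in the same order, again with no overlap and with the Firefly value below the floor. It rose at least 3.64-fold counted from the floor (1.95 as read, SE 0.19, limma adjusted p = 0.000821). Among all 12735 measured genes 29.0% rose and 17.8% fell by the same rule, beside 2 of the 6 measured members that rose and 0 that fell (0 also at an unadjusted limma p under 0.05), so a rise is not in itself unusual here. The test sets 2 iPSC arrays against 2 day 6 arrays that differ in their own conditions, so its spread takes in the labelled knockdown and whatever sets the lines apart. Both iPSC clones came from fibroblasts with Sumo2 knockdown, but only 1 of the 2 day 6 cultures had it. The knockdown label is therefore mixed into the difference as well, and the parts cannot be told apart. Above the culture labelled Sumo2 knockdown alone, the 38 h and 10 day lines stood 1.73 and 1.52 higher for Eomes and 1.94 and 1.67 for Ascl2.

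The pair had nearly the same profile. After each gene was centred on its mean over the 4 arrays, Eomes and Ascl2 differed by at most 0.12 on any array, and of 11818 other named, measured genes Ascl2 was the number 19 nearest to Eomes and Eomes the number 11 nearest to Ascl2. Nearest to Eomes were Klhl2 (largest difference 0.06), which encodes a substrate adaptor of a ubiquitin ligase, and the tight junction gene Tjp3 (0.06). Nearest to Ascl2 were C2cd5 (0.05) and Ralgps2 (0.09). These are likenesses over 4 arrays, and many genes share a step between day 6 and iPSC.

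Tfap2c differed most among the members between the day 6 cultures. It read 6.55 with Firefly knockdown, 8.03 in the culture labelled Sumo2 knockdown, 8.06 in the 38 h line and 9.48 in the 10 day line. The culture labelled Sumo2 knockdown stood beside the 38 h line (0.03 apart), the Firefly culture was below the floor, and the 10 day line was highest. Counted from the floor Tfap2c was at least 2.62-fold higher in the culture labelled Sumo2 knockdown than with Firefly knockdown (1.48 on the log2 scale as read). That made 1 of 5 measured members past 2-fold upwards and 0 downwards, against 0.792% of 11740 measured genes higher and 0.179% lower. With 1 array a side there is no test. Tfap2c was measured in this comparison only through the Sumo2 labelled culture, where it is high, so the count carries no support. Of 7 pluripotency markers, Nanog and Tdgf1 were also at least 2-fold higher there, Esrrb was higher by less and 4 lay below the floor in both day 6 cultures. The mean log2 level over the 7 was 6.31 and 7.37 in the Firefly and Sumo2 labelled cultures, and their part in the difference was not tested.

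Between iPSC and day 6 Tfap2c did not pass the test (log2 difference 1.48, SE 0.59, limma adjusted p = 0.0821, unadjusted p = 0.0445), and its values lay 1.48 apart between the day 6 arrays and 1.42 between the iPSC arrays. Without the 38 h array, which left 1 iPSC array, it passed (2.19, limma adjusted p = 0.00622), and over 9 alternatives the adjusted p ran from 0.00622 to 0.403. Without the Firefly array the difference was 0.74 and did not pass. The Tfap2c profile had no close match. The nearest were the X-linked gene Nexmif (largest difference 0.37) and Atf7ip2 (0.39), and both read higher with the Sumo2 than with the Firefly label and highest in the 10 day line.

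The remaining members differed little at day 6. Eomes was higher by 0.31 and Ascl2 by 0.28 as read in the culture labelled Sumo2 knockdown, Gata3 by 0.05, and Gata2 was lower by 0.48 (-0.48, or 1.39-fold). Hand1 lay below the floor in both day 6 cultures (6.07 and 6.24).

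Hand1, the giant cell factor, stood out in the 10 day line. It read 6.07 with Firefly knockdown, 6.24 in the culture labelled Sumo2 knockdown, 6.45 in the 38 h line and 7.77 in the 10 day line, the only array on which it reached the floor. It was at least 2.16-fold higher in the 10 day than in the 38 h line, counted from the floor (1.32 as read). Gata2 read 8.88, 8.41, 7.97 and 9.12 in the same order, so the 2 iPSC values enclosed both day 6 values. The 10 day line was 2.23-fold above the 38 h line (log2 difference 1.16), and Tfap2c was 2.67-fold above it (1.42). Counted this way 3 of 6 measured members were past 2-fold upwards in the 10 day line and 0 downwards, against 1.74% of 11754 measured genes higher and 0.791% lower. Hand1 was measured in this comparison only through the 10 day array, where it is high, so its place in the count carries no support. The members were also chosen with earlier results of these data known, and neither line had a replicate. The count of all 3 is therefore a description only. Eomes and Ascl2 went slightly the other way (-0.20 and -0.27).

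X-linked genes also stood higher in the 10 day line, with a median log2 difference of 0.57 over 394 measured genes, and they made up 63 of the 204 genes at least 2-fold higher. Tfap2c, Gata2 and Hand1 lie on chromosomes 2, 6 and 11. Of 11335 measured autosomal genes, 1.24% were at least 2-fold higher in the 10 day line and their median difference was -0.03. Primitive endoderm markers moved in the other direction: over 6 genes, 5 reached the floor in the 38 h line and 4 in the 10 day line, and their mean log2 level was 7.67 and 6.84. In the same order, endothelial markers (5 genes) had means of 6.91 and 7.33 and blood markers (5 genes) 6.41 and 6.68. Of the endothelial markers 2 and 3 reached the floor. Pecam1 was highest (9.54 and 10.18), and Cdh5 and Kdr lay below the floor in both lines. Of the blood markers 2 reached the floor in each line. Cd68 was highest (9.47 and 10.02), and Ptprc, Cd52 and Gata1 lay below the floor in both. Early mesoderm markers (4 genes) had 5.97 and 6.10 and surface ectoderm markers (3 genes) 5.28 and 5.20, mostly below the floor. The part of X-linked genes or of any marker set in these differences was not tested. With 1 array per line, a difference between the lines and one between arrays cannot be told apart.

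Hand1 and Gata2 did not pass between iPSC and day 6. The log2 difference was 0.95 for Hand1 (SE 0.42, limma adjusted p = 0.105) and -0.10 for Gata2 (SE 0.38, limma adjusted p = 0.842). The Hand1 value changed with the iPSC array left out. Without the 38 h array it was 1.61 (limma adjusted p = 0.000994, range over 8 alternatives 0.000994 to 0.325), but Hand1 entered that fit through the 10 day array, which was then the single iPSC array, so this p carries no support. Without the 10 day array Hand1 lay below the floor on the 3 arrays left and was not tested, and the 38 h line stood 0.29 above the day 6 mean as read. For Gata2 the sign turned with the array left out, from -0.68 without the 10 day to 0.48 without the 38 h array, and neither passed. The genes nearest to Hand1 as read were Zc3hav1 and Slc25a20, but 3 of the 4 Hand1 values lay below the floor, so that likeness rests on background. Nearest to Gata2 were Prickle3 (0.09) and Creg1 (0.10).

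Gata3, which in trophectoderm acts beside Cdx2, did not reach 2-fold in any comparison. Its brighter probe set read 7.40 with Firefly knockdown, 7.45 in the culture labelled Sumo2 knockdown, 7.22 in the 38 h line and 7.57 in the 10 day line, and the iPSC mean was level with day 6 (-0.03, SE 0.19, limma adjusted p = 0.902). The other Gata3 probe set read 7.16, 6.85, 6.62 and 6.65, highest with Firefly knockdown and below the floor in both lines. The probe sets therefore differed in the order of the arrays, and taking their median gave a difference of -0.20 that did not pass either. One more probe set, which the annotation shares between Gata3 and clone-named genes, read 4.82 to 5.01.

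**Figure D2:**
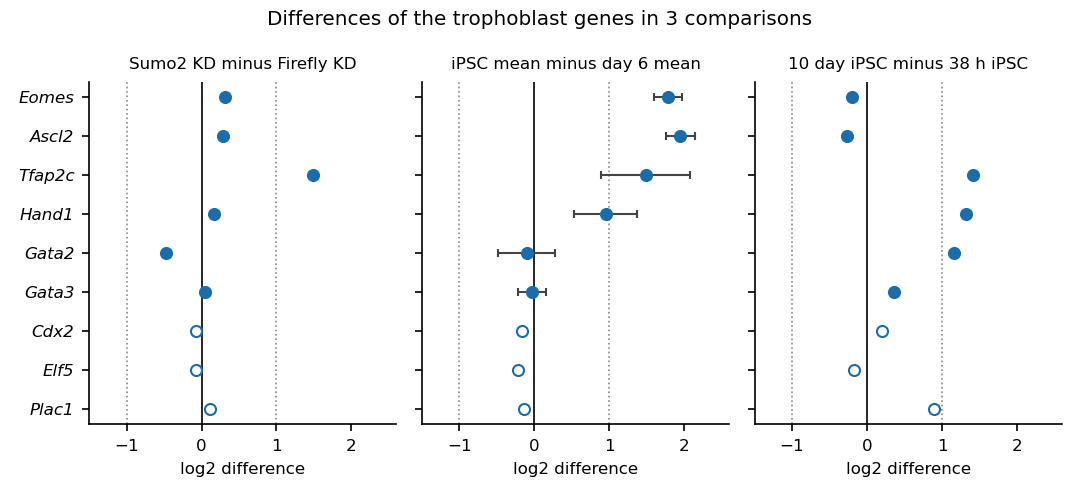
Log2 differences as read (x axis) of the 9 genes (y axis) in the 3 comparisons; filled points are genes at or above the floor on at least 1 array, open points genes below it on all 4, bars in the middle panel the limma SE, and dotted lines mark 2-fold. Eomes and Ascl2 are apart from 0 between iPSC and day 6, Tfap2c is the single gene past 2-fold at day 6, and Tfap2c, Hand1 and Gata2 are past it between the lines.

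Family relatives show whether other genes of the same class were read where a member was not. Of 23 listed relatives 20 had a probe set of their own and 12 were measured: 2 rose, 2 fell and 8 did not pass. Elf3, an ETS factor of epithelia and a relative of Elf5, read 5.52 and 5.37 in the Firefly and Sumo2 labelled cultures and 9.81 and 10.55 in the 38 h and 10 day lines. It rose at least 11.5-fold counted from the floor (4.74 on the log2 scale as read, with an SE of 0.26, limma adjusted p = 0.000178) while Elf5 stayed below the floor. Elf3 lay below the floor in both day 6 cultures and entered the fit only through the iPSC arrays, where it is high. Ehf, another epithelial ETS relative of Elf5, went the opposite way, from 7.81 and 7.84 to 5.14 and 5.55, below the floor in both lines. It fell at least 2.24-fold counted from the floor (-2.48 as read, SE 0.22, limma adjusted p = 0.000633). Elf1 (-0.07), Elf2 (0.31) and Elf4 (-0.72) did not pass.

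Among GATA relatives Gata6, a factor of primitive endoderm, read 6.49, 6.39, 8.41 and 7.12 in the array order used above and rose at least 2.16-fold counted from the floor (1.32 as read, SE 0.40, limma adjusted p = 0.0356). It was highest in the 38 h line, where Gata2 was lowest. Gata4 (0.21) and Gata5 (-0.33) did not pass and Gata1 lay below the floor on every array. Tfap2a, the AP-2 relative of surface ectoderm and trophoblast, read 6.30, 7.14, 5.78 and 6.13, so it reached the floor in the culture labelled Sumo2 knockdown alone, and its difference between iPSC and day 6 did not pass (-0.77). Tfap2e did not pass (-0.42), and Tfap2b and Tfap2d lay below the floor throughout. Of the T-box relatives Tbx21 fell at least 1.56-fold counted from the floor (-0.85 as read, SE 0.23, limma adjusted p = 0.0230), and the Cdx2 relative Cdx1 lay near the floor, at 6.24 to 6.95, and did not pass (-0.11).

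**Figure D3:**
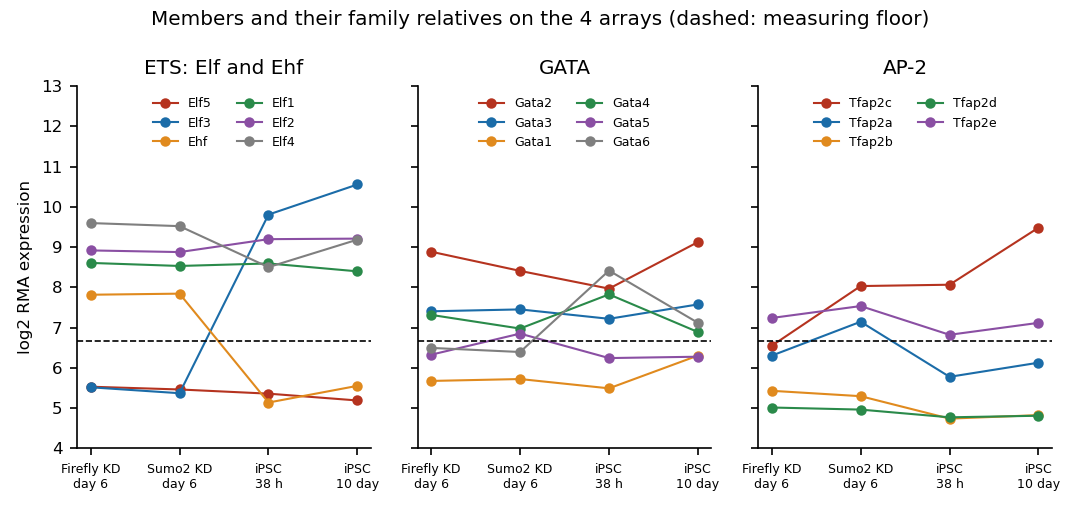
Log2 RMA expression (y axis) of Elf5, Gata2, Gata3 and Tfap2c with their family relatives on the 4 arrays (x axis, 1 point per array, lines only to guide the eye, dashed line the mean measuring floor). Elf3 climbs to 10.55 and Ehf falls below the floor while Elf5 stays under it, and Gata6 peaks in the 38 h line where Gata2 is lowest.

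The genes that surround these factors were read from lists. Hippo signalling sets Cdx2 in the embryo, where Tead factors with Yap1 switch it on and Lats kinases prevent this. Of 16 Hippo and Notch genes 8 fell, 3 rose and 5 did not pass, with a median log2 difference of -0.43 between iPSC and day 6, against 0.15 over all measured genes. The kinase gene Lats2 fell by 1.71, Tead3 fell by 1.49, and the Notch effector gene Rbpj rose by 1.45. Tead4, which is needed for Cdx2 in the embryo and was singled out for that role after its values were seen, was above the floor on all arrays, read 9.17, 9.40 and 9.34 on the first 3 and least in the 10 day line, and did not pass (-0.12). Amot, a Hippo scaffold gene, was 2.08-fold higher in the 38 h than in the 10 day line (8.27 against 7.21).

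Of 22 measured genes of the trophoblast stem cell network, many of which pluripotent cells use too, 11 rose, 5 fell and 6 did not pass (median 0.45). Sox2, Tbx3 (2.46) and Klf5 (2.38) led by size, and Sox2 rose at least 40.3-fold counted from the floor. Sox2 read 6.10 with Firefly knockdown and 6.55 in the culture labelled Sumo2 knockdown, below the floor in both. The labels do not name the induced reprogramming factors, so whether Sox2 is among them is not stated. Whether its probe set also reads RNA from a factor transgene was not tested. Nodal, a ligand of the TGF-beta family that feeds the stem cell niche, was 2.04-fold higher in the culture labelled Sumo2 knockdown than with Firefly knockdown (8.16 against 7.13). The X-linked homeobox gene Rhox5 was 4.35-fold higher in the 10 day line and Bmp4 2.02-fold higher in the 38 h line. Of 17 genes of differentiated trophoblast with a probe set, 11 were below the floor on every array, against 42.6% of all 22180 genes, among them the prolactin family genes Prl4a1 and Prl8a9 and the syncytin genes Syna and Synb. Of the other 6, Phlda2, Dlx3 and Peg10 rose and 3 did not pass. Phlda2, an imprinted growth regulator of the placenta, read 5.64, 5.66, 9.78 and 7.66, at least 4.19-fold higher in iPSC counted from the floor (3.07 as read, SE 0.62, limma adjusted p = 0.00873) and was 4.35-fold higher in the 38 h line, whereas Rhox6, another X-linked homeobox gene, was at least 4.17-fold higher in the 10 day line.

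The epithelial genes of the trophectoderm are also expressed in other epithelia. Of 12 measured, 5 rose, 2 fell and 5 did not pass (median 0.97), with the tight junction gene Cldn4 (2.67), the water channel gene Aqp3 (2.59 as read, from below the floor with Firefly knockdown) and the cadherin gene Cdh1 (2.18) first. Cdh1 was 4.52-fold and Cldn6 2.78-fold higher in the culture labelled Sumo2 knockdown, and Aqp3 was 6.06-fold higher in the 10 day line than in the 38 h line. Lrp2, an endocytic receptor gene that primitive endoderm also expresses, was at least 3.60-fold higher in the 38 h line. Of 15 genes known to keep trophoblast genes down in pluripotent cells, 12 rose, 0 fell and 3 did not pass (median 0.98). Nanog (3.57), Sall4 (2.66) and the DNA methyltransferase gene Dnmt3b (2.17) led, and Nanog was 5.02-fold and Sall4 2.99-fold higher in the culture labelled Sumo2 knockdown than with Firefly knockdown. Cdx2 and Elf5 were below the floor on both sides of this comparison.

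Partners and inhibitors of the helix-loop-helix, GATA and AP-2 factors mostly fell, with 8 of 15 down, 2 up and 5 not passing (median -0.72). The Id genes, whose products bind the E-proteins that Hand1 and Ascl2 need as partners, fell furthest, with log2 differences of -2.86 for Id3 and -2.29 for Id1. Id2 went from 11.57 and 11.90 in the day 6 cultures to 9.61 and 9.86 in the lines. Zfpm1, which encodes the GATA cofactor FOG-1, was 2.07-fold higher in the 10 day than in the 38 h line (9.33 against 8.27), as Gata2 was. The lists were chosen with results of these data known, and the counts stand beside 29.0% of all measured genes that rose and 17.8% that fell. Among named genes that passed, Elf3, Sox2, Phlda2, Gata6 and Rhox5 entered the fit only through the iPSC arrays. Ehf and Tbx21 entered only through the day 6 arrays. Each was high where it entered, so these p values carry no support of their own. Of the 26 list genes named above that passed, 19 also did so with each array left out in turn, while Aqp3, Bmp4, Gata6, Phlda2, Rhox5, Tbx21 and Cldn6 lost the call without at least 1 array: 6 genes without the Firefly array, 6 without the Sumo2 labelled array, 3 without the 38 h and 1 without the 10 day array. Cyclic loess scaling moved the median of all measured genes from 0.15 to 0.03. After it, the rising genes numbered 1 in the Hippo and Notch list, 8 in the stem cell network and 9 in the restraint list. They numbered 4 in the trophectoderm epithelium and 1 among partners and inhibitors. The falling genes then numbered 9 in the Hippo and Notch list, 10 among partners and inhibitors and 3 among family relatives. Falling counts stayed the same in the other lists. Aqp3, Bmp4 and Rhox5 did not pass after this scaling.

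**Figure D4:**
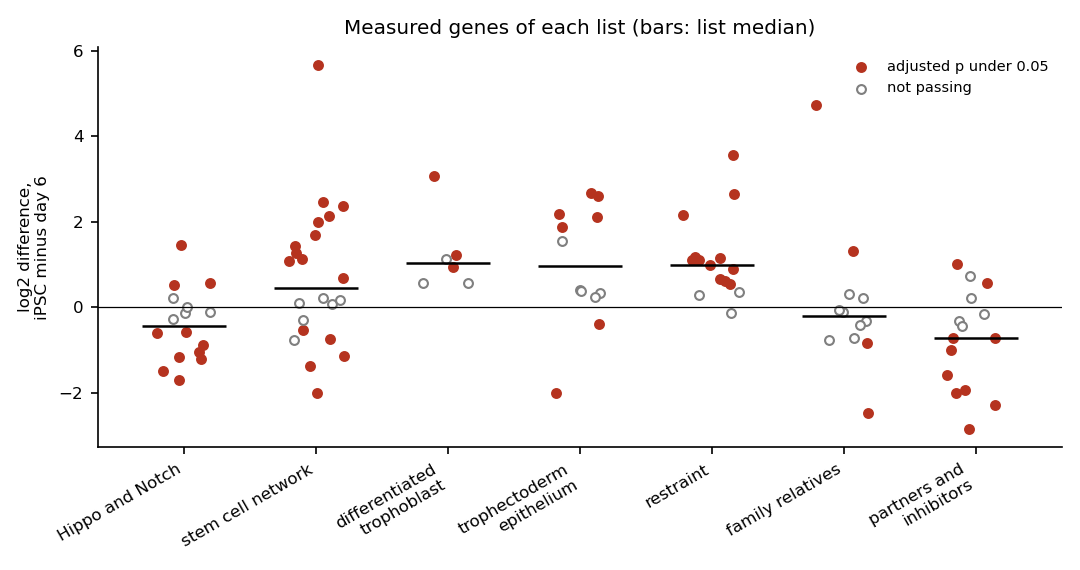
Log2 difference between the iPSC and the day 6 arrays (y axis) of each measured gene in 7 lists (x axis, points spread sideways at random); filled points passed at a limma adjusted p under 0.05 and black bars are list medians. The restraint list has 12 filled points above 0 and 0 below, and the partners and inhibitors have 8 below.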

How the data were processed

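Per the submitters' processing notes, the authors made the deposited log2 values with RMA (which corrects background, quantile-normalizes the arrays and summarises probes), run in Affymetrix Expression Console; versions, settings and array build are not given in the sources used here. Base 2 was taken because RMA writes that scale. Quantile normalization hides a change of total RNA, and RMA shrinks differences of dim probe sets. Arrays give no counting depth, and their number limits the precision.

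The platform annotation gave 1 symbol to 23521 of the 41345 probe sets, several to 1814 and none to 16010. The probe set with the highest mean stood for a gene. Comparisons of 1 array with 1 used 2-fold, with values below the floor taken as equal to it, and no p. The iPSC and day 6 arrays were compared with limma 3.58.1 in R 4.3.3 (lmFit, eBayes, trend by intensity, residual degrees of freedom 2) over 12735 measured genes, with Benjamini-Hochberg adjusted p under 0.05 as the threshold; the script was tested on simulated data. Whether the cultures were raised separately is not stated in the labels. The members and lists were chosen with earlier results of these data known. The rule for naming took all members, up to 3 genes of each list past the limma threshold with the largest differences, up to 2 at least 2-fold apart in each other comparison, measured relatives, and the 2 genes nearest in profile to each member spanning at least 1 log2 unit. Chromosomes came from a gene table of GRCm38.p6.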

Additional observations from a re-analysis of the deposited data

How the results depend on the processing

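Eomes and Ascl2 passed the limma threshold between iPSC and day 6 under all 9 alternatives run (cyclic loess, 2 other floors, the median of a gene's probe sets, no intensity trend, and each of the 4 arrays left out), with log2 differences of 1.63 to 1.94 and 1.81 to 2.09. The count of members that rose was 2 to 4 when an array was left out, and 4 without the 38 h array, where Hand1 and Tfap2c passed as well with the 10 day array alone on the iPSC side; Hand1 gave no value without the 10 day array, being below the floor on the other 3; the count that fell was 0 throughout. With an array left out the Gata2 difference ran from -0.68 to 0.48, turning to 0.14 without the Firefly and to 0.48 without the 38 h array, and that of Gata3 from -0.21 to 0.15, turning without the 38 h array; none of these passed, and the cause was not tested. Over all measured genes, leaving out an array gave 1872 to 3196 that rose, against 3694, and 1161 to 2004 that fell, against 2264, the lowest without the Firefly array, with 1 residual degree of freedom. Genes of the 7 lists that rose numbered 21 to 37 in the same way, against 38, an alternative chosen after seeing the data. Without a filter or floor, 40 genes in place of 21 were at least 2-fold lower in the culture labelled Sumo2 knockdown. The counts of members at least 2-fold apart, 1 at day 6 and 3 between the lines, were the same under the 4 alternatives run for them. No paired analysis was possible because each condition had 1 array, and the labels carry no replicate numbers.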
